A study of Homo sapiens with 10 samples.

Results

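The genes of MHC class I and of its peptide loading were followed across 10 microarrays of ST486, a human Burkitt's lymphoma B cell line. Cells carried a lentiviral short hairpin RNA (shRNA) against the kinase gene STK38 (Sigma TRCN0000010215, 5 arrays) or a non-target control shRNA (Sigma SHC002, 5 arrays), and RNA was taken 60 h after transduction. All arrays share the cell line, the lentiviral transduction and the time point, the hairpin against STK38 is a single one, and no untransduced cells were analysed here. The 9 genes, chosen by name, were the class I heavy chain genes HLA-B, HLA-C, HLA-E, HLA-F and HLA-G, the light chain gene B2M, the peptide transporter genes TAP1 and TAP2, and TAPBP. They were represented by 12 of the 12558 probe sets on the array that are not controls. Of these, 11 were annotated to 1 gene each, for 7 of the genes, and 1 to HLA-B and HLA-C together, so those heavy chains cannot be told apart here.

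MHC class I molecules display peptides from inside the cell on its surface, where CD8 T cells and natural killer cells read them. A heavy chain folds with the light chain beta-2 microglobulin in the endoplasmic reticulum. The TAP1-TAP2 transporter brings peptides in from the cytosol, and tapasin, the product of TAPBP, holds the heavy chain at the transporter until a peptide is bound. HLA-B and HLA-C are classical class I genes, whereas HLA-E, HLA-F and HLA-G are non-classical. HLA-E carries mainly leader peptides of other class I chains and is read by the CD94-NKG2A receptor of natural killer cells. Class I genes are known targets of interferon-induced IRF factors, of NF-kappaB and of NLRC5.

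Class I heavy chain, light chain and tapasin transcripts were higher with the STK38 shRNA, whereas the transporter transcripts were not called different. HLA-E rose most, 2.21-fold, TAPBP rose 1.54-fold, and the HLA-B and HLA-C probe set rose 1.48-fold. Of the 11 probe sets bright enough to be tested, 9 rose and 0 fell in limma at an adjusted p under 0.05, and TAP1 and TAP2 were the exceptions. TAP1 and TAP2 were also the dimmest tested, with mean log2 levels of 3.19 and 2.54 beside an array background of 2.36 to 2.66. Over all 7535 probe sets tested, 14.1% were called higher and 15.8% lower. The 9 came from 5 of the 7 genes with a probe set of their own and from the pair HLA-B and HLA-C. B2M and HLA-G were counted at more than 1 probe set, so the 9 are not independent. Over 5403 genes taken by their brightest probe set, 15.2% were called higher. At 8 of the 11 every STK38 shRNA array lay above every control array, as it did at 9.33% of all probe sets tested; counted in either direction, 22.1% of all probe sets tested kept the groups apart. The median log2 difference was 0.36 over the 11 probe sets and 0.018 over all. Bright probe sets were called higher more often: of the probe sets with a mean log2 value of at least 7, a level set after the values were seen, 27.8% were, and 8 of the 8 class I and loading probe sets at that level were.

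**Figure D1:**
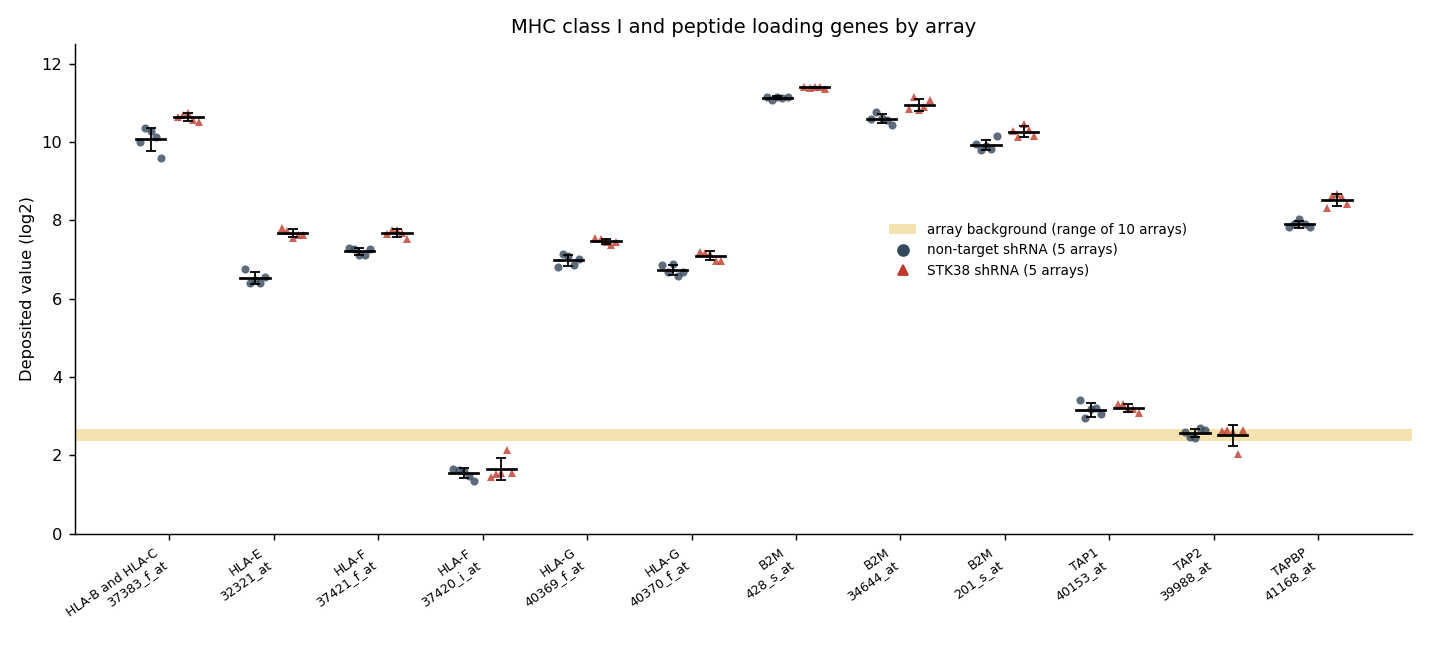
Deposited log2 value of each of the 12 probe sets on each array, with circles for non-target shRNA, triangles for STK38 shRNA, and bars for the mean and SD of 5 arrays; the shaded band spans the background of the 10 arrays, 2.36 to 2.66. The groups stand apart at HLA-E, at TAPBP and at most other bright probe sets, and lie on each other at TAP1 and TAP2.

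The targeted gene was lower in every STK38 shRNA array. The STK38 probe set 370_at fell by 2.19 in log2 units (SE 0.14, limma adjusted p = 5.65e-08), and the remaining probe sets for it fell by 1.16 and 0.82. Of the 5 STK38 shRNA arrays, 4 were above background at 370_at and 2 at 36218_g_at, which fell by 0.82. Background thus limits how well these 2 falls are sized. Array medians ran from 2.12 to 2.25. STK38 shRNA replicate 4 stood apart: its 75th percentile was 3.53 where the other arrays had 3.91 to 4.01, and it correlated at 0.982 on average with the other arrays of its group, which correlated with each other at 0.995 to 0.997. Without it the 9 calls above were made again. B cell markers were present: 8 of the 9 measured, among them MS4A1, CD79A and IGHM, were above background on all 10 arrays, and PAX5 was not above background on any. Their mean log2 level was 6.03 to 6.23 with the STK38 shRNA and 6.56 to 6.66 in the controls. Of the 8 tested, 4 fell and 1 rose: MME fell by 1.60 on the log2 scale, CD38 by 1.49, BLNK by 0.77 and IGHM by 0.48, whereas CD79A rose by 0.49. Their part in the class I differences was not tested. Most nucleated cell types carry class I, so markers of other types were read as well. T cell markers had mean levels of 2.31 to 2.45 against 2.44 to 2.52 (2 of 8 above background on any array), NK cell markers of 1.75 to 1.96 against 1.78 to 1.89 (2 of 5), monocyte markers of 1.75 to 2.03 against 1.78 to 1.92 (1 of 7) and epithelial markers of 2.02 to 2.36 against 1.97 to 2.17 (3 of 7). The highest NK cell, monocyte and epithelial levels were those of STK38 shRNA replicate 4. The fibroblast and endothelial list lay at 2.76 to 3.01 against 2.98 to 3.01, and its 2 members above background on any array of 7 included VIM, which blood cells express too and which fell by 1.48. Erythroid markers (0 of 2) were not above background on any array. No marker of these types was called higher, and TRBC1, which fell by 0.52, and CD247 were called lower. The list means hide markers above background on all 10 arrays, 1 each in the T cell, epithelial, and fibroblast and endothelial lists. The T cell marker TRBC1 read 7.59 to 7.93 with the STK38 shRNA and 8.15 to 8.50 in the controls. The epithelial marker KRT8 read 3.87 to 4.37 against 3.84 to 3.92, and VIM read 8.47 to 8.59 against 9.87 to 10.17.

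The promoters of these genes are shown because most of the genes rose together and because the transporter genes, which were not called, carry the same kind of element. RefSeq (GRCh38.p14) promoter sequences matched 8 of the 9 genes, all but HLA-E. The windows printed are the 200 bases that precede the annotated start, written 5′ to 3′ on the strand of the gene, for HLA-B, HLA-F, B2M and TAPBP as genes whose probe sets rose and for TAP1 and TAP2 as those not called. For TAP1 the window is that of the more upstream of 2 annotated starts. Capitals mark matches on either strand to AANNGAAA, the core read by IRF factors, and the GA before it where present, which makes the longer interferon response core and so always overlaps an AANNGAAA.
HLA-B, chr6:31357180-31357379, minus strand: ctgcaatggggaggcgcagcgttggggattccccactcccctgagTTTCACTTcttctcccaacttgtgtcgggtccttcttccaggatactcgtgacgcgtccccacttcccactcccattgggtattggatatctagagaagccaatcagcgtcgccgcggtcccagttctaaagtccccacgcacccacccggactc
HLA-F, chr6:29723234-29723433, plus strand: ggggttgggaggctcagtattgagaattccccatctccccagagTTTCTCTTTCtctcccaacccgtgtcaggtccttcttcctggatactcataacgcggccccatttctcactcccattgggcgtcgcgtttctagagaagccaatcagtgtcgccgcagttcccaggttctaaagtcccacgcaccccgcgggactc
B2M, chr15:44711317-44711516, plus strand: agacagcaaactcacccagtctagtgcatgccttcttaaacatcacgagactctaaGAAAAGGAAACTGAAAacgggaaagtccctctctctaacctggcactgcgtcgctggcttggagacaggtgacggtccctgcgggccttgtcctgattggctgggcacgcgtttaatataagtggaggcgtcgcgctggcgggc
TAPBP, chr6:33314079-33314278, minus strand: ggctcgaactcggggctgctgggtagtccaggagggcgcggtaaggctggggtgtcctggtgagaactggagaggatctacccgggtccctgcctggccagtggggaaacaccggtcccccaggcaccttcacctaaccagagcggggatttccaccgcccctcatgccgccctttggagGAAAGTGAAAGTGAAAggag
TAP1, chr6:32853705-32853904, minus strand: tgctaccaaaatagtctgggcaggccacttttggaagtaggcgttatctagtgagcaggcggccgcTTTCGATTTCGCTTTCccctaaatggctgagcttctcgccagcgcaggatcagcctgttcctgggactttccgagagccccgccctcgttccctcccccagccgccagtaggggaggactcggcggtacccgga
TAP2, chr6:32838740-32838939, minus strand: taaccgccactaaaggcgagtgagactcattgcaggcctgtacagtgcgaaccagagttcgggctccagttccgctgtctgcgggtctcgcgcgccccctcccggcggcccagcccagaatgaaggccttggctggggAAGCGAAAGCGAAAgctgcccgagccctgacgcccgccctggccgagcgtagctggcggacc

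The AANNGAAA core was found in the window of 7 of the 8 genes, all but HLA-G with its 3 annotated starts, and in 16.1% of the 35116 promoter windows of the same length. The longer core, AANNGAAA with GA directly before it, was found in 5 of the 8, namely HLA-F, B2M, TAP1, TAP2 and TAPBP, and in 2.40% of all windows. In HLA-B the core lies 155 to 148 bases before the start, in HLA-C 151 to 144, in HLA-F 156 to 149, and in TAPBP there are overlapping copies from 18 to 5 bases before the start. TAP1, at the more upstream of its 2 annotated starts, and TAP2 hold it as well. The window of the other TAP1 start held no such core. These letters were present in genes that rose and in TAP1 and TAP2, which were not called and had low signal. The part of the letters in the differences was not tested. The NF-kappaB consensus matched in 6 of the 8 genes (HLA-B, HLA-C, HLA-G, B2M, TAP1 and TAPBP) and in 8.14% of all windows. TGACG, part of the element bound by CREB and ATF factors, matched in 4 of the 8 (18.4% of all windows) and CCAAT, the NF-Y box, in 5 of the 8 (28.0%). A gene was counted when the window of any of its annotated starts matched, with 3 starts for HLA-G and 2 for TAP1. The shares over all windows count each start apart, so the gene counts and these shares are not in like units. HLA-G matched the NF-kappaB consensus and CCAAT only at start 3. All motifs were searched on both strands, and a match is a description of letters, not of binding.

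HLA-E showed the largest difference of the set. Its probe set 32321_at read 7.81, 7.72, 7.56, 7.62 and 7.61 (log2) on STK38 shRNA arrays 1 to 5 and 6.77, 6.39, 6.47, 6.40 and 6.56 on control arrays 1 to 5. The lowest STK38 shRNA array lay 0.79 above the highest control array. The means were 7.66 ± 0.10 and 6.52 ± 0.15 (SD, n = 5 each), a log2 difference of 1.15 (SE 0.094, 95% interval 0.95 to 1.35, limma adjusted p = 4.87e-07). The two-sided exact permutation test over arrays gave 0.00794, the smallest p that 5 against 5 arrays allow. Among 5403 genes taken by their brightest probe set, 48 had a larger rise. The difference stayed between 1.11 and 1.21 over all 19 alternatives run. Those that altered only the filter, the variance model, the threshold or the replicate block cannot move it and left it at 1.15.

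On the log2 scale the HLA-E probe set changed more than the other tested probe sets of the set. These probe sets differ in mean log2 level, from 2.54 for TAP2 to 11.26 for B2M 428_s_at, with HLA-E at 7.09. How far level affects the size of a log2 difference was not tested. The change of each other tested probe set was subtracted from that of HLA-E array by array, a comparison chosen after the values were seen. This family held 12 comparisons, including a pair for TAPBP. HLA-E was taken because its difference was the largest, so the direction of each comparison with it was set by that choice. The p-values below do not allow for that choice. HLA-E rose by 0.53 more than TAPBP on the log2 scale and by 0.58 more than the HLA-B and HLA-C probe set, with arrays of the groups overlapping in both cases (exact permutation p = 0.0159, adjusted p = 0.0159). Against HLA-F and the HLA-G probe sets it rose by 0.67 to 0.79 more, and against the B2M probe sets by 0.79 to 0.89 more, without overlap (exact permutation p = 0.00794 and adjusted p = 0.00952 each). Against TAP1 and TAP2 the excess was 1.10 and 1.21 (adjusted p = 0.00952 each in the exact permutation test).

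The classical heavy chains rose as measured by the probe set they share. That probe set, 37383_f_at, read 10.63, 10.69, 10.75, 10.57 and 10.50 on the STK38 shRNA arrays and 9.99, 10.35, 10.27, 10.13 and 9.59 on the control arrays. The controls were more spread than the STK38 shRNA arrays, with control replicate 5 lowest, and the groups did not overlap. The means were 10.63 ± 0.097 and 10.07 ± 0.30 (SD, n = 5 each), a log2 difference of 0.56 (SE 0.11, 95% interval 0.33 to 0.80, limma adjusted p = 0.00126). With single arrays left out the difference ran from 0.44 to 0.63.

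The tested probe sets of the non-classical genes HLA-F and HLA-G rose by less than that of HLA-E, and they may also bind other class I transcripts. HLA-F, a class I chain found in part inside the cell, read 7.64, 7.75, 7.75, 7.68 and 7.51 on the STK38 shRNA arrays and 7.28, 7.25, 7.12, 7.10 and 7.27 on the controls at probe set 37421_f_at. No control array reached the lowest STK38 shRNA array, and the log2 difference was 0.46 (SE 0.080, limma adjusted p = 0.000474), or 1.38-fold. The other HLA-F probe set, 37420_i_at, was not above background on any array (1.35 to 2.14) and was left out of the test. HLA-G, known as the class I gene of the trophoblast, read 7.54, 7.51, 7.45, 7.36 and 7.43 against 6.81, 7.13, 7.09, 6.87 and 7.0 in the controls at 40369_f_at. Its log2 difference was 0.48 (SE 0.086, limma adjusted p = 0.000612), or 1.40-fold. At the other HLA-G probe set, 40370_f_at, the STK38 shRNA arrays lay at 6.97 to 7.20 and the controls at 6.59 to 6.88, a difference of 0.36 (SE 0.091, limma adjusted p = 0.00767). Both probe sets thus separated the groups.

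Heavy chain probe sets may bind each other's transcripts. The letter f in the name of a probe set marks one that the array maker designed against a family of similar sequences, and 4 of the 12 carry it: the HLA-B and HLA-C probe set, 1 for HLA-F and both for HLA-G. Their differences lay between 0.36 and 0.56, whereas HLA-E, whose probe set has no such mark, had 1.15. Trophoblast markers were not above background on any array (0 of 4 measured, mean log2 levels of 1.17 to 1.42 with the STK38 shRNA and 1.28 to 1.37 in the controls). How much of the HLA-F and HLA-G signal came from other class I transcripts was not tested. A probe set of the same kind for the class I pseudogene HLA-J, 35017_f_at, named after its values were seen, rose by 0.34 (SE 0.094, limma adjusted p = 0.0116), with 1 control array inside the range of the STK38 shRNA arrays.

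**Figure D2:**
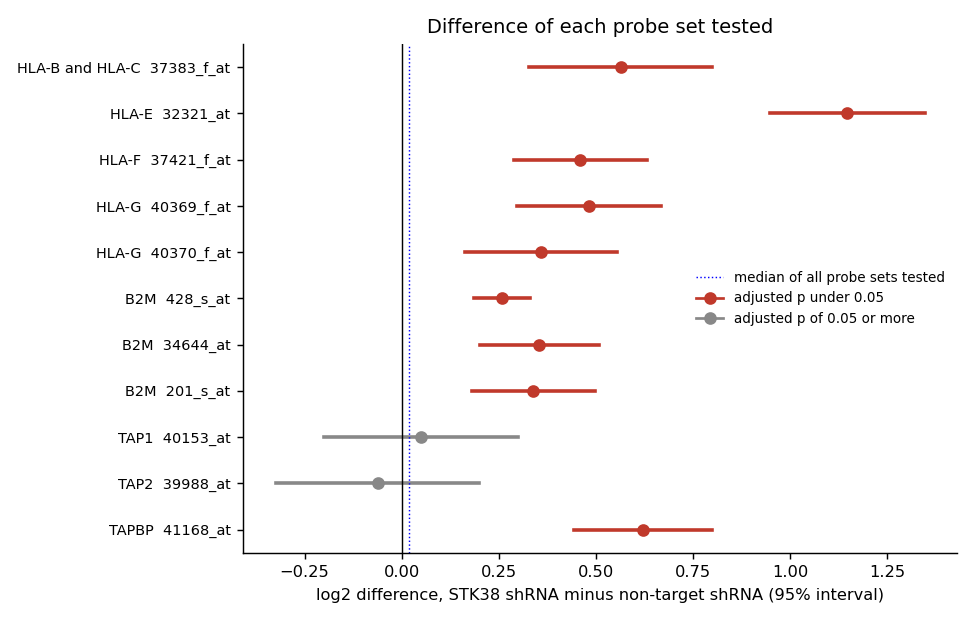
Log2 difference of each tested probe set, STK38 shRNA minus non-target shRNA, with its 95% interval from limma; red marks an adjusted p under 0.05, grey the others, and the dotted line the median of all probe sets tested, 0.018. HLA-E stands at 1.15, 8 probe sets lie between 0.26 and 0.62, and TAP1 and TAP2 lie at 0.050 and -0.062 with intervals that span 0.

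B2M, the light chain shared by all class I molecules, rose slightly at each of its 3 probe sets. The brightest, 428_s_at, read 11.41, 11.38, 11.39, 11.41 and 11.36 on the STK38 shRNA arrays and 11.15, 11.08, 11.16, 11.11 and 11.15 on the controls. These arrays spread little, with a gap of 0.20 between the groups, and the log2 difference was 0.26 (SE 0.033, limma adjusted p = 3.71e-05), or 1.20-fold. Probe set 34644_at rose by 0.35 (SE 0.072, limma adjusted p = 0.00160), with 10.81 to 11.15 against 10.44 to 10.77. Probe set 201_s_at rose by 0.34 (SE 0.074, limma adjusted p = 0.00276). There control replicate 5, at 10.14, reached the lowest STK38 shRNA arrays, and the exact permutation p was 0.0238. B2M was among the brightest genes on the array, with 428_s_at above 99.6% of probe sets by mean level.

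TAPBP, which encodes tapasin, rose on every STK38 shRNA array. It read 8.30, 8.63, 8.66, 8.58 and 8.41 on the STK38 shRNA arrays and 7.82, 7.90, 8.04, 7.89 and 7.82 on the controls. Every STK38 shRNA array was at least 0.26 above the highest control array. The means were 8.52 ± 0.16 and 7.90 ± 0.091 (SD, n = 5 each), a log2 difference of 0.62 (SE 0.083, 95% interval 0.44 to 0.80, limma adjusted p = 5.07e-05).

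The transporter genes behaved differently from tapasin. TAP1 read 3.31, 3.32, 3.18, 3.19 and 3.07 on the STK38 shRNA arrays and 3.42, 2.95, 3.18, 3.21 and 3.05 on the controls. The groups lay on each other, the log2 difference was 0.050 (SE 0.12, limma adjusted p = 0.811), and its 95% interval ran from 0.871-fold to 1.23-fold. TAP2 read 2.61, 2.65, 2.60, 2.04 and 2.64 against 2.59, 2.46, 2.45, 2.69 and 2.65. Its log2 difference was -0.062 (limma adjusted p = 0.774), with an interval from 0.799-fold to 1.15-fold, and it turned to 0.055 (adjusted p = 0.666) without STK38 shRNA replicate 4, the lowest array. The difference of TAP1 was -0.0029 (adjusted p = 0.992) without control replicate 2. TAPBP rose by 0.57 more than TAP1 and by 0.68 more than TAP2 on the log2 scale (exact permutation p = 0.00794, adjusted p = 0.00952 each). Signal limits this comparison. TAP1 was above background on all 10 arrays, though by little, and TAP2 on 4 of the 5 STK38 shRNA and 3 of the 5 control arrays. The part of low signal in this result was not tested.

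Genes that make and trim the peptides or fold the heavy chain were mixed. Of 21 such genes listed, 16 had a probe set and 15 were tested. In limma 4 rose, 1 fell and 10 were not called, with a median log2 difference of -0.075, beside 15.2% of genes called higher, 15.8% called lower and a median of 0.019 over the 5403 genes tested. NPEPPS, a cytosolic aminopeptidase, had a log2 rise of 1.03 (SE 0.21, limma adjusted p = 0.00149). There STK38 shRNA replicate 4 read 3.69 where the others of its group lay at 4.77 to 4.93 and the controls at 3.38 to 3.86, and without it the rise was 1.26. NRDC, a peptidase that can cut epitope precursors, rose by 0.41 (SE 0.083, adjusted p = 0.00160), PSME1, a subunit of the PA28 proteasome activator, by 0.27 (SE 0.059, adjusted p = 0.00256), and the chaperone gene HSP90AA1 by 0.20 (SE 0.056, adjusted p = 0.0122). HSPA5, the endoplasmic reticulum chaperone BiP, fell by 0.58 (SE 0.074, limma adjusted p = 3.29e-05) and did not overlap between the groups. The immunoproteasome subunit genes lie beside the transporter genes in the MHC. PSMB9 had a log2 difference of 0.32 (SE 0.12, adjusted p = 0.0579) and PSMB8 of -0.038 (adjusted p = 0.770). Calnexin, encoded by CANX, had -0.075 (adjusted p = 0.576).

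Among factors that act on class I promoters, 14 of 18 listed genes were tested, and 2 rose, 1 fell and 11 were not called (median 0.046), shares near or below the 15.2% higher and 15.8% lower over all genes. IRF9, the DNA-binding part of the interferon-activated ISGF3 complex, read 3.30 to 4.08 with the STK38 shRNA and 2.50 to 2.81 in the controls, of which 4 of 5 were above background. It rose by 0.87 (SE 0.15, limma adjusted p = 0.000360). The brightest probe set for RELA, an NF-kappaB subunit, rose by 0.29 (SE 0.091, adjusted p = 0.0232), a call made in 9 of the 10 fits with 1 array left out, and its 3 other probe sets were not called. Of these, 36645_at had 0.24 and 1045_s_at 0.19. The third, 1271_g_at, was above background on 1 control array only and was called without STK38 shRNA replicate 4 (adjusted p = 0.0130). CIITA, the class II transactivator, was called lower (adjusted p = 0.0240), but was above background on 1 control array and 0 STK38 shRNA arrays, so no size is given, and the call was made in 6 of the 10 fits with 1 array left out. RFX5, part of the complex that binds class I and class II promoters, had 0.12 (adjusted p = 0.398), NFKB1 -0.040 (adjusted p = 0.826) and NFYB 0.11 (adjusted p = 0.697).

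Of 14 listed class I-like and receptor genes, 12 were tested, and 2 rose, 1 fell and 9 were not called (median 0.0027). These counts lie near or below the 15.2% called higher and 15.8% called lower over all genes. FCGRT, the heavy chain of the neonatal Fc receptor, which also pairs with B2M, rose by 0.69 (SE 0.12, limma adjusted p = 0.000622) at its brighter probe set on average. Its other probe set, 31431_at, had 0.18 (adjusted p = 0.704). There STK38 shRNA replicate 4 read 2.47 where the others of its group read 4.07 to 4.37, and without it the difference was 0.54 (adjusted p = 0.00136). MR1, which presents vitamin metabolites to MAIT cells and pairs with B2M too, rose by 0.67 (SE 0.15, adjusted p = 0.00346) and by 0.57 at another probe set. The third was above background on 1 STK38 shRNA array and 0 control arrays, so no size is given. MICB, a stress ligand of the NKG2D receptor that does not bind B2M, fell by 0.77 (SE 0.14, adjusted p = 0.000767), from 7.21 to 7.56 in the controls to 6.22 to 7.11. Its relative MICA had -0.31 (adjusted p = 0.135) and was above background on 3 of 5 arrays in each group. AZGP1 (-0.031) was not called, nor was LILRB2, which was not above background on any array.

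Of 33 interferon-induced genes listed, 24 were tested, of which 13 rose, 2 fell and 9 were not called (median 0.32), beside 15.2% higher, 15.8% lower and a median of 0.019 over all genes. ISG15, a ubiquitin-like protein, rose by 1.12 (SE 0.11, adjusted p = 2.02e-06) and SP100 by 0.63 (SE 0.15, adjusted p = 0.00465), whereas ADAR, an RNA-editing enzyme with an interferon-induced form, fell by 0.81 (SE 0.085, adjusted p = 5.00e-06). No control array showed OAS1 or GBP1 above background, which puts their rises at 1.76-fold or more and 1.58-fold or more, and IFI35, above background on 1 control array, was called higher with no size given. IFITM3 (0.21), OAS2 (0.11) and EIF2AK2 (-0.0082) were not called at their brightest probe sets. The other OAS2 probe set, 39263_at, had 0.39 (adjusted p = 0.218), and 0.62 (adjusted p = 0.00132) without STK38 shRNA replicate 4. The other EIF2AK2 probe set, 38662_at, had 0.28 (adjusted p = 0.0939), and 0.32 (adjusted p = 0.0363) without that array. SP100 rose by 0.57 at another probe set and had -0.040 at the remaining one, and ISG15 rose by 0.78 at its other.

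**Figure D3:**
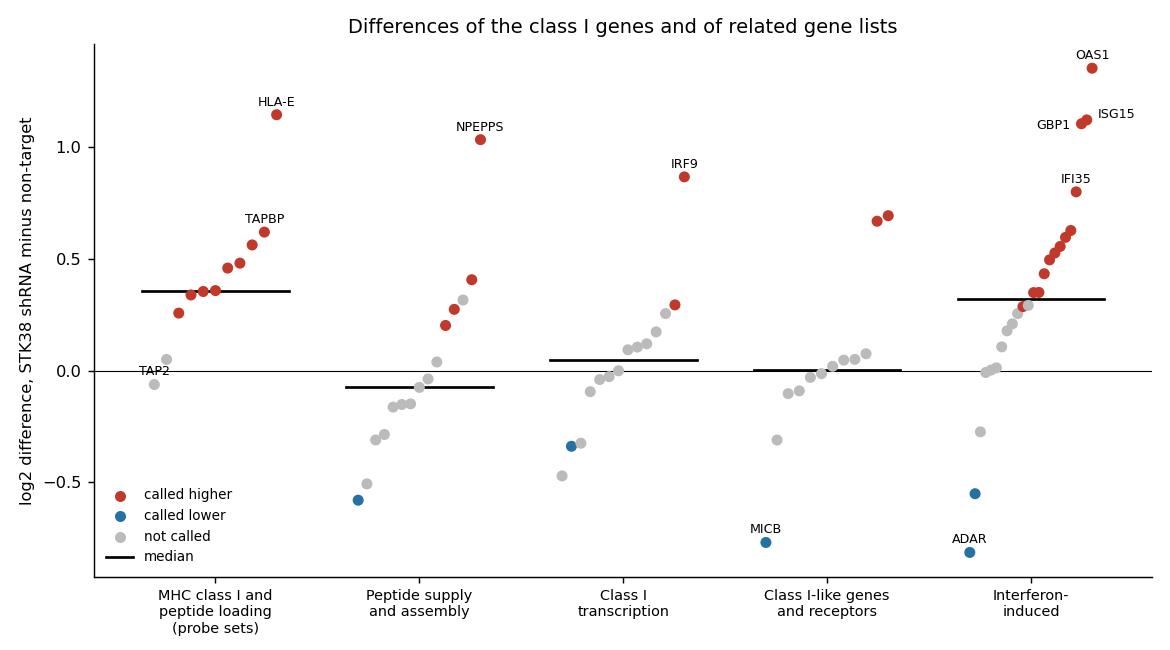
Log2 difference, STK38 shRNA minus non-target shRNA, of the 11 tested class I and loading probe sets and of the tested genes of 4 related lists, 1 point each, sorted within a column, with the median as a line. Red points were called higher, blue lower and grey not called in limma at an adjusted p under 0.05; medians are 0.36 for the class I set and -0.075, 0.046, 0.0027 and 0.32 for the lists from left to right.

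All of the genes but B2M, which is on chromosome 15, lie in the MHC on chromosome 6, the chromosome that also holds STK38. Between HLA-F and TAPBP, both included, RefSeq orders 140 protein-coding genes, and 68 were tested. Without the class I and loading genes and the HLA-D genes, 53 remained, of which 8 rose and 8 fell (15.1% each), beside 15.2% and 15.8% of all genes tested. The genes around the class I genes were thus called about as often as genes in general. The lysosomal sialidase gene NEU1 had the largest rise of the region, 2.03, and MDC1, a DNA damage adaptor, the largest fall, -1.65. Of 9 class II and related HLA-D genes tested, 0 were called in limma, 1 had an unadjusted p under 0.05, and their differences ran from -0.16 to 0.44.

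**Figure D4:**
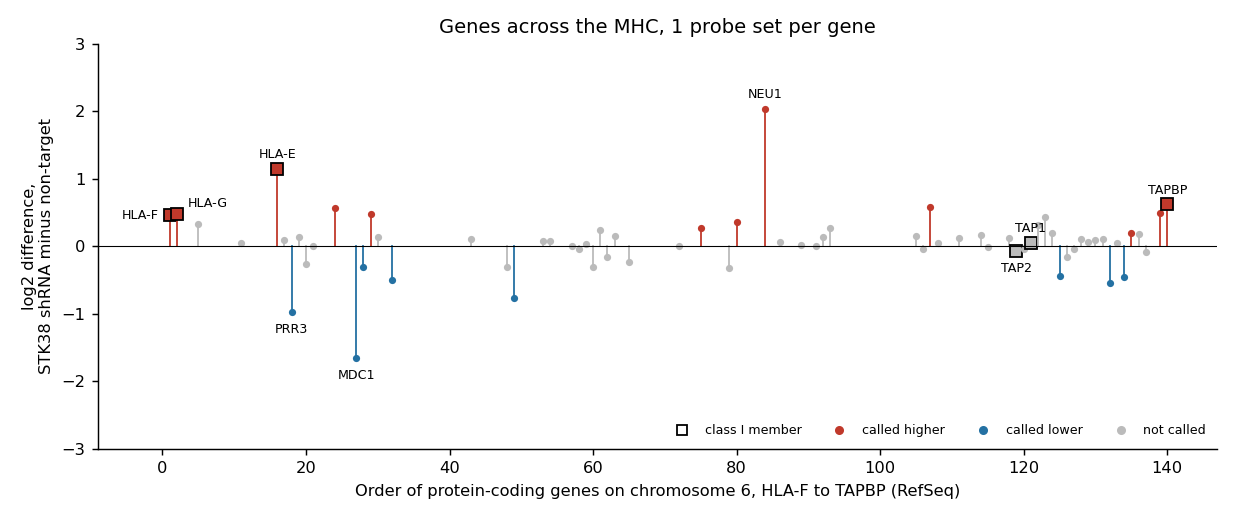
Log2 difference of each tested gene, STK38 shRNA minus non-target shRNA, in the order of protein-coding genes from HLA-F (order 1) to TAPBP (order 140), with squares for class I and loading genes. HLA-E stands at 1.15 and TAPBP at 0.62, TAP1 and TAP2 lie near 0, and called genes of either direction are spread along the region.

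The class I and loading genes were left out of a search for the genes whose values lay nearest to those of HLA-E. Each gene was centred on its control mean, and the root mean square distance to HLA-E was taken over the 10 arrays for 5396 other genes. The nearest were ATP6V1D, a subunit of the lysosomal proton pump (distance 0.074), PPP2CB, a catalytic subunit of protein phosphatase 2A (0.11), C6orf120 (0.12), JUND, an AP-1 factor (0.14), and LSS, the sterol synthesis enzyme lanosterol synthase (0.16). A gene with no difference on any array would lie 0.82 from HLA-E. Their log2 differences, 1.01 to 1.19, are similar to that of HLA-E by the way they were chosen.

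The labels do not say whether replicates were separate cultures, so the p-values reflect only how far these arrays scatter, and that scatter may be technical. In RNA from whole cultures, a change in every cell and a change in some cells cannot be told apart.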

How the data were processed

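Biotin-labelled RNA (5 ug per array) was hybridised to 1-colour Affymetrix U95Av2 arrays, per the labels. The deposited table holds 1 log2 value per probe set and array; the authors used GCRMA and affy, per the submitters' processing notes, with no version named, and the log2 scale was read from the values. GCRMA estimates background from the probes' base composition, normalizes the probes between arrays and then gives 1 value per probe set, whose distributions can still differ. Precision is limited by the 5 arrays of each group.

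Gene names came from GEO's platform annotation, brought up to date by Entrez identifier (10934 of 10943 single-gene probe sets matched). Control probe sets (67) and those with a mean under the 40th percentile (1.93) were left out of the test, which left 7535. Groups were compared in R 4.3.3 with limma 3.58.1 (lmFit, eBayes with trend, 8 residual degrees of freedom), Benjamini-Hochberg adjustment over all probe sets tested and a threshold of 0.05, and the fit was tested on simulated data. Lists use the brightest probe set of each gene. Background is the 90th percentile on each array of 23 mouse, yeast and reverse-strand control probe sets. Where no array of a group passed background, the fold is a bound, taken against whichever of background and measured signal was larger per array.

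The 9 genes, the lists and the tests were chosen with earlier results of these data known. All probe sets of the 9 genes are given; each list names up to 6 called genes with the largest differences and 3 others with the highest mean; other list members are counted only. Genes named in the region and HLA-J were chosen after their values were seen. Alternatives covered scaling, filter, variance model, array weights, threshold, probe set choice, background, a fit with a replicate block, and fits that each omit 1 array. Figures were drawn with matplotlib 3.10.9.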

Additional observations from a re-analysis of the deposited data

Results flagged for a closer look

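Of the 84 groups of 5 values examined for the class I and loading probe sets, STK38 and the genes named from the lists, 7 held 1 array far from the other 4; chance marks about 1 in 20 groups. STK38 shRNA replicate 4 accounts for 5 of them. On that array TAP2 read 2.04 (log2) where the others of its group read 2.60 to 2.65. The dim HLA-F probe set 37420_i_at read 2.14 there against 1.46 to 1.55, NPEPPS 3.69 against 4.77 to 4.93, IFI35 2.53 against 3.14 to 3.25, and STK38 itself (370_at) 2.46 against 2.88 to 2.95. In the controls, NFKB1 read 6.04 on replicate 5 against 5.82 to 5.88, and RFX5 read 6.90 on replicate 1 against 7.25 to 7.36. No bright class I, B2M or TAPBP probe set was among the 7.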

How the results depend on the processing

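The 9 class I and loading calls were made under every alternative run, with 9 also under the replicate block. The 3 values that changed sign belonged to genes not called: TAP2 was 0.050 with array weights and 0.055 without STK38 shRNA replicate 4, and TAP1 was -0.0029 without control replicate 2. With single arrays left out, TAP2 ran from -0.098 to 0.055 and TAP1 from -0.0029 to 0.11. Over all probe sets 2256 were called, 1494 at a threshold of 0.01, 2159 with the replicate block and 1947 to 2817 with single arrays left out. The 1064 higher and 1192 lower calls became 1548 and 1269 without STK38 shRNA replicate 4, and 1619 and 1351 with array weights. Genes called in the 4 lists numbered 26, and 22 to 29 with single arrays left out. Same-numbered arrays of the groups deviated together at correlations of -0.21 to 0.19. The labels do not say whether the numbers pair the groups, and correlations this weak cannot settle it. Without the reverse-strand probe sets of human genes the background was 1.89 to 2.18 and TAP2 was above it on 9 arrays instead of 7.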
